A study of Mus musculus with 5 samples.

Results

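The pre-B cell receptor components are 9 genes chosen by name, though with earlier results of these data known: Vpreb1, Vpreb2, Vpreb3 and Igll1, which encode surrogate light chain proteins or relatives of them, Cd79a and Cd79b, which encode the signalling chains of the receptor, and Blnk, Syk and Btk, which encode proteins that carry its signal inside the cell. They are 9 of the 28692 genes counted in every library, and all 9 gene identifiers in the count tables matched the annotation.

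Before a B cell precursor has rearranged a light chain gene, its immunoglobulin mu heavy chain is paired with a surrogate light chain, built from a VpreB protein and the Igll1 protein, and this complex is the pre-B cell receptor. The Cd79a and Cd79b chains carry tyrosine motifs which, once phosphorylated, recruit the kinase Syk, and Syk phosphorylates the adaptor Blnk, which brings Btk and phospholipase C gamma together. In bone marrow the receptor is known for testing the newly made heavy chain and for driving the proliferation of large pre-B cells, after which the surrogate light chain genes are turned off.

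Bone marrow of C57BL/6J mice, bought at 8 weeks of age, was studied by droplet-based single-cell RNA sequencing (10x Genomics, 3′ ends of transcripts with unique molecular identifiers, UMIs) after tail vein injection of 1000 BCR-ABL1 pre-B acute lymphoblastic leukemia cells. There were 5 libraries from 5 mice: 1 mouse was killed right after injection (day 0) and 1 mouse each at day 3, day 6, day 9 and day 12. The recipients were not irradiated and kept their own marrow, and transplanted cells were not told apart from host cells in the counts used here. Cells flushed from femurs and tibias were pooled with cells released from the crushed bones by collagenase, and red cells were lysed. With 1 mouse a day, no day has a replicate, and the difference between days cannot be told apart from the difference between mice, so no test was made. Intervals are 95% exact Poisson intervals of a summed count or 95% exact binomial (Clopper-Pearson) intervals of a share, and they cover counting error only. For a count of 0, the limit given is the level or share that 3 counts would make.

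The libraries held 35329966 UMIs at day 0, 38827241 at day 3, 40601920 at day 6, 43554233 at day 9 and 33425695 at day 12. Barcodes with at least 500 UMIs were kept as cells, 6680, 5474, 6506, 7604 and 5871 in the same order, with a median of 2874, 3786, 3382, 3254 and 3408 UMIs per cell. Pairs of libraries shared between 44 (day 6 and day 12) and 73 (day 6 and day 9) cell barcodes, and none was removed.

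B-lineage cells numbered 3905 of 32135 and were clustered again with the 9 genes and 40 related pathway genes left out, so that the stages were not set by the genes described. Of the clusters, 237 pro-B-like cells had the highest Dntt level, 10.9 UMIs per 10000 UMIs against 0.144 or less in the other stages named here. The 256 cycling pro/pre-B-like cells carried 12 of 14 cell cycle markers, with Mki67 at 4.08. The 638 small pre-B-like cells had the highest Rag1 level (3.59) with 3 of 6 small pre-B markers, but also 4 of 10 pro-B markers. The 1745 mature B-like cells had Fcer2a at 2.04, and came from a cluster of 1378 cells led by Ighd and Fcer2a and one of 367 cells led by Crem and Vps37b.

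Another 488 cells with Ms4a1 at 18.8 met no naming rule and are called by their leading genes, Ifi30 and Ms4a1. The same holds for 368 cells led by Mt1 and Myl10, of which 184 came from the day 3 library and whose median depth of 12403 UMIs stood far above the 1544 to 4861 of the named stages. A cluster of 173 B-lineage cells with neutrophil markers was set apart. Values are given for stages with at least 20 cells in a library: at day 12 only the mature B-like stage (87 cells) passed, while the pro-B-like, cycling and small pre-B-like stages held 11, 8 and 18 cells.

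A level is the summed UMIs of a gene per 10000 summed UMIs of all cells of a stage in a library. Neutrophils were the most abundant cells of these libraries (16982 cells), and at least 8 of 9 neutrophil markers had UMIs in every stage. Their summed level in pro-B-like cells was 405 at day 0, 329 at day 3, 219.9 at day 6 and 238 at day 9, led, as in every stage and library, by S100a8 or S100a9. In small pre-B-like cells it was 224, 285, 293 and 339.5 and in cycling cells 446, 158, 171 and 182. In mature B-like cells it was 250.5, 372, 327, 308 and 377 from day 0 to day 12. The median mitochondrial share was lowest at day 0 in each named stage, 2.71% in pro-B-like cells against 3.29% to 4.20% later, and 3.18% in small pre-B-like cells against 5.66% to 5.67% later. The part of neutrophil RNA, depth and mitochondrial share in the results that follow was not tested.

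**Figure D1:**
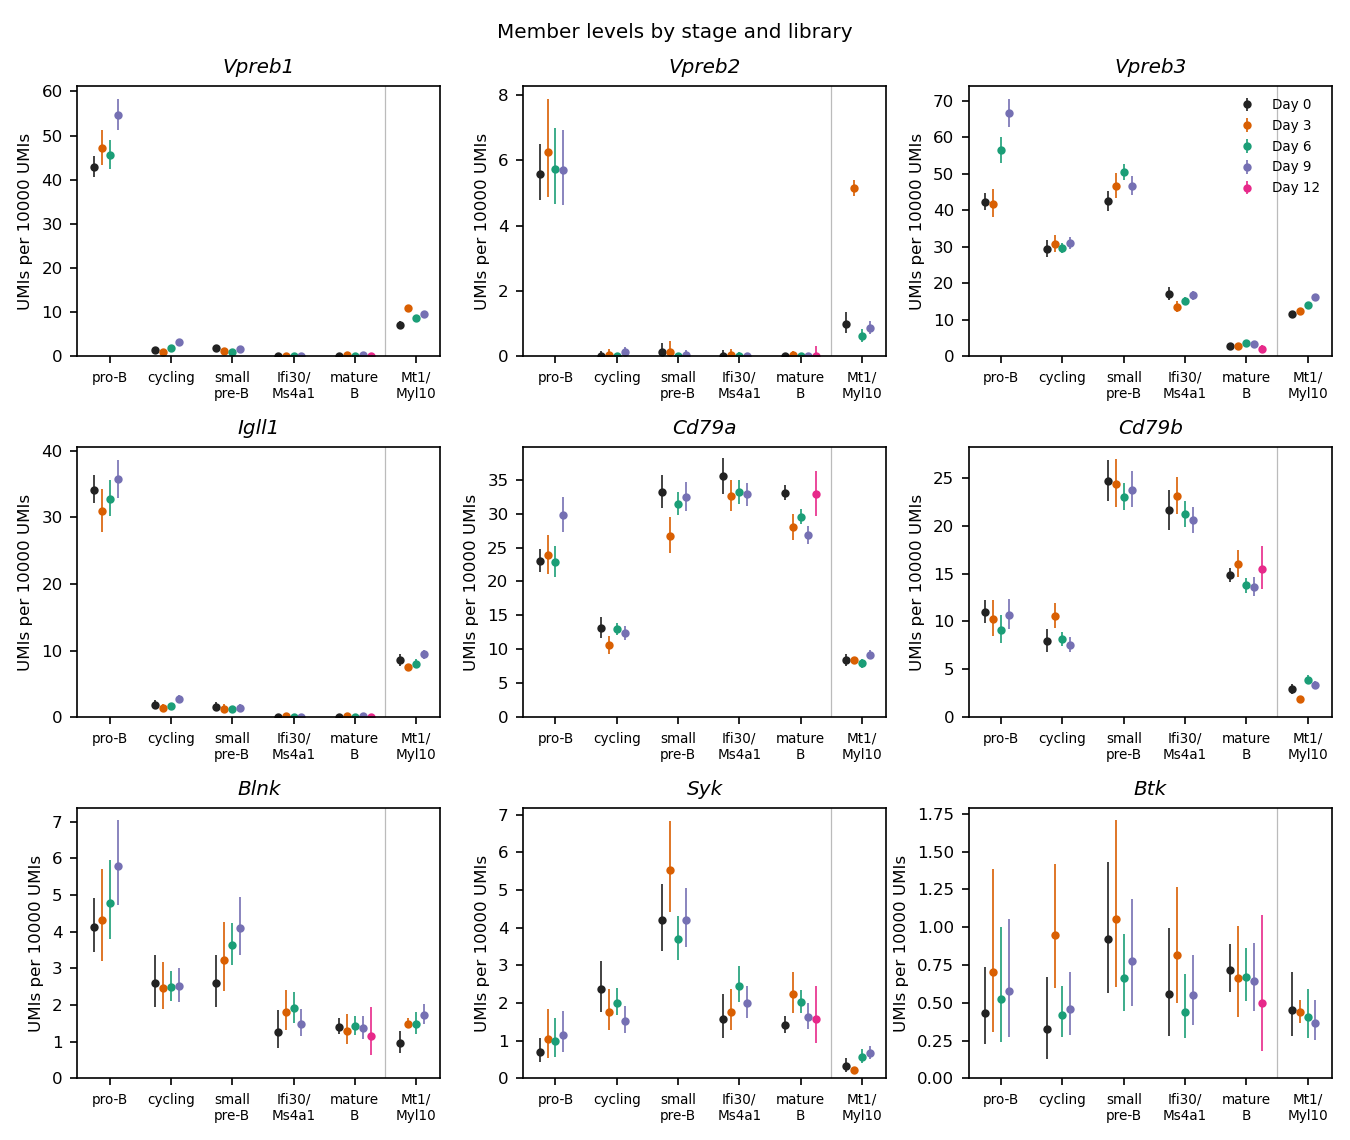
Levels of the 9 genes (UMIs per 10000 UMIs, linear axes, each gene on its own scale) in 6 groups of B-lineage cells, with points for libraries with at least 20 cells coloured by day and bars for the exact Poisson 95% interval. Vpreb1, Vpreb2 and Igll1 peak in pro-B-like cells, Cd79b and Syk peak in small pre-B-like cells, and Btk shows no stage whose libraries all stand above those of another named stage.

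The plot of levels by stage sets the 4 to 5 libraries of each stage side by side, and the genes follow in the order of their roles. On chromosome 16 (GRCm38 coordinates, GENCODE vM21), Vpreb1 (ENSMUSG00000059305) lies at chr16:16868403-16870843 on the minus strand with 2 exons, and Igll1 (ENSMUSG00000075370) lies 4418 bases away at chr16:16860671-16863985 on the same strand with 3 exons. Vpreb2 (ENSMUSG00000059280) lies 1109585 bases from Vpreb1, at chr16:17980428-17981273 on the plus strand, with 2 exons. Vpreb3 (ENSMUSG00000000903) is on another chromosome, at chr10:75943057-75949657 on the plus strand with 2 exons.

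Vpreb1, the VpreB protein that takes the place of the variable part of a light chain, was concentrated in pro-B-like cells, at 43.0 (40.6–45.4) at day 0, 47.2 (43.3–51.3) at day 3, 45.6 (42.5–48.9) at day 6 and 54.7 (51.3–58.3) at day 9. The day 9 library was highest, and its interval lay above those of days 0 and 6 and touched that of day 3. In cycling cells the level was 1.34 (0.899–1.93) at day 0, 0.987 (0.632–1.47) at day 3, 1.88 (1.56–2.26) at day 6 and 3.15 (2.65–3.70) at day 9. In small pre-B-like cells it was 1.80 (1.28–2.47) at day 0, 1.25 (0.753–1.95) at day 3, 1.03 (0.754–1.38) at day 6 and 1.63 (1.18–2.18) at day 9. Cycling cells were above small pre-B-like cells at day 6 and day 9, with intervals apart on both days and by up to 1.93 times, and below them with overlapping intervals at day 0 and day 3. Pro-B-like cells held 17.4 to 47.8 times the Vpreb1 level of cycling cells and 23.8 to 44.1 times that of small pre-B-like cells. In mature B-like cells Vpreb1 was at 0.0963 at day 0, 0.220 at day 3, 0.114 at day 6, 0.221 at day 9 and 0 (allowing up to 0.248) at day 12, and the Ifi30/Ms4a1-led cluster, at 0.0916–0.163, overlapped with them.

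A pro-B-like cell held a median of 14 Vpreb1 UMIs (0 to 50). Vpreb1 UMIs were found in 96.2% (thinned 82.3%) of pro-B-like cells, where thinned means that each cell was first reduced to 500 UMIs at random, in 30.1% (thinned 7.03%) of cycling cells and in 7.37% (thinned 2.82%) of small pre-B-like cells. Neutrophil-like cells, which should lack the gene, gave 2.98% (thinned 0.418%) at a median depth of 3266 UMIs, against 2959, 4861 and 1659 UMIs in those stages. Mature B-like cells gave 2.29% (thinned 0.516%) at a median of 1544 UMIs, close to the neutrophil-like share, and this is read as background. Barcodes with at most 100 UMIs, which mostly hold free RNA, had Vpreb1 at 1.004 at day 0, 1.83 at day 3, 0.812 at day 6, 1.02 at day 9 and 0.373 at day 12. In pro-B-like cells Vpreb1 was far above this level in every library shown. In cycling cells it was above it with intervals apart at day 6 and day 9, overlapped with it at day 0 and lay wholly below it at day 3. In small pre-B-like cells it was above it with intervals apart at day 0, met it at day 9 and overlapped with it at day 6 and, from below, at day 3. Free RNA levels are shares of free UMIs and not the amount of free RNA in a cell. Neutrophil-like cells held Vpreb1 at 0.0219 to 0.134, below every free RNA and every small pre-B-like value. For this and the other genes, an overlap with free RNA, or a level below it, therefore does not show that a level is background.

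Igll1, which supplies the constant part of the surrogate light chain, was also highest in pro-B-like cells, with 34.1 (32.1–36.3) at day 0, 30.9 (27.7–34.3) at day 3, 32.8 (30.1–35.6) at day 6 and 35.7 (32.9–38.6) at day 9 in pro-B-like cells. All 4 intervals overlapped, so that no day stood apart. Cycling cells held 1.90 at day 0, 1.40 at day 3, 1.74 at day 6 and 2.75 at day 9, and small pre-B-like cells 1.62 at day 0, 1.25 at day 3, 1.22 at day 6 and 1.40 at day 9. Igll1 was higher in cycling than in small pre-B-like cells in 4 of 4 libraries, with intervals apart in 1. Pro-B-like cells held 12.97 to 22.1 times the Igll1 level of cycling cells and 21.1 to 27.0 times that of small pre-B-like cells. In free RNA (barcodes with at most 100 UMIs) Igll1 was at 0.699 at day 0, 1.19 (1.08–1.31) at day 3, 0.722 at day 6 and 0.598 at day 9. At day 3 the small pre-B-like level lay within this interval and rested on 19 UMIs, and the cycling level rested on 34 UMIs. Mature B-like cells were at 0.0438 at day 0, 0.126 at day 3, 0.0682 at day 6, 0.129 at day 9 and 0 (allowing up to 0.248) at day 12. Igll1 UMIs were in 93.7% (thinned 75.1%) of pro-B-like, 30.9% (thinned 6.64%) of cycling, 6.27% (thinned 2.35%) of small pre-B-like and 1.26% (thinned 0.172%) of mature B-like cells, against 2.63% (thinned 0.395%) of neutrophil-like cells.

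Most pro-B-like cells had UMIs of Vpreb1 (96.2%) and most had UMIs of Igll1 (93.7%), so that cells with both are expected to be many whether or not the genes go together. Of pro-B-like cells, 93.2% (221 of 237, 89.3–96.1) had UMIs of both genes, with 94.7% at day 0, 84.4% at day 3, 95.6% at day 6 and 94.5% at day 9, and thinning to 500 UMIs left 65.4%, with 82.3% holding Vpreb1 and 75.1% Igll1. Among cycling cells 19.9% (51 of 256) had both and 59.0% had neither, with 1.56% holding both after thinning. Among small pre-B-like cells 47 had Vpreb1 and 40 had Igll1, 3.29% (21 of 638) had both and 89.7% had neither, with 0.940% after thinning. Vpreb1 UMIs were not spread evenly in that stage: at day 9, 10 of 181 cells had any Vpreb1 UMI and 1 cell held 16 of the 44. No mature B-like cell had both (0 of 1745, which allows up to 0.172%).

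Vpreb2, a near-copy of Vpreb1, was also concentrated in pro-B-like cells, at 5.59 (4.78–6.502) at day 0, 6.25 (4.88–7.88) at day 3, 5.73 (4.65–6.98) at day 6 and 5.69 (4.63–6.93) at day 9. All 4 intervals overlapped. Elsewhere among the named stages its UMIs were few: 10 in cycling cells, 6 in small pre-B-like cells and 1 in mature B-like cells over all libraries, with levels from 0 (allowing up to 0.139) to 0.131 in cycling cells. Vpreb2 UMIs were in 66.2% (thinned 26.2%) of pro-B-like cells and 0.141% (thinned 0.0294%) of neutrophil-like cells. The Vpreb1 and Vpreb2 transcripts, of 766 and 759 bases, were 97.4% identical, and 96.0% over their last 300 bases, where reads of this chemistry fall. None of 203 windows of 98 bases there was shared in full, against 99 of 662 (14.96%) over the whole transcript. How counting divided reads between these near-identical copies is uncertain, and so are the separate values of each.

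The promoters of Vpreb1, Vpreb2 and Igll1 are shown because these genes shared their highest level in pro-B-like cells, with the windows (250 bases before to 50 after the start, RefSeq, GRCm38.p6) at chr16:16869206-16869505 on the minus strand for Vpreb1, chr16:17980315-17980614 on the plus strand for Vpreb2 and chr16:16863936-16864235 on the minus strand for Igll1. Capitals mark the E-box CAGGTG, or CACCTG on the other strand, letters known to be bound by E2A proteins, and in Igll1 also CCCNNGGG, which reads the same on both strands and is the core bound by EBF proteins.
Vpreb1: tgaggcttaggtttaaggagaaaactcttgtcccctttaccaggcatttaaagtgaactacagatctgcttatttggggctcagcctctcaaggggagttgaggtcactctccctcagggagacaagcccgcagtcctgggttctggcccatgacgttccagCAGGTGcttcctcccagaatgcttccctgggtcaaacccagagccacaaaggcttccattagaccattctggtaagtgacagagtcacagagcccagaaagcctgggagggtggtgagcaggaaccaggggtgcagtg
Vpreb2: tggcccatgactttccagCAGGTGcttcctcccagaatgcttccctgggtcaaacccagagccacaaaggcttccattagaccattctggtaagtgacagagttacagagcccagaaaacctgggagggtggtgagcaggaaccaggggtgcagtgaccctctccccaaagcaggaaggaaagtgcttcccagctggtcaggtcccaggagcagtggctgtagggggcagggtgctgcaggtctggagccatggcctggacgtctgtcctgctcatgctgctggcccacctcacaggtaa
Igll1: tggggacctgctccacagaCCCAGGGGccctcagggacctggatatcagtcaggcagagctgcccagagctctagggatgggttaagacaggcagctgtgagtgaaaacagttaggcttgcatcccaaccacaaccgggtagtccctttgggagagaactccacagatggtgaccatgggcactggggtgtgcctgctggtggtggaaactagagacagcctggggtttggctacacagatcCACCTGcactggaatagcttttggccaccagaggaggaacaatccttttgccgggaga
The RefSeq starts of Vpreb1 and Vpreb2 lie inside the GENCODE bounds of these genes. The Vpreb1 and Vpreb2 windows shared a run of 91 identical bases, starting at base 157 of the first and base 13 of the second, while the longest run either shared with Igll1 was 10 and 8 bases. Each of the 3 windows held 1 E-box, as did those of Cd79a, Blnk and Syk, and 20.2% of all 32851 promoters of this length hold the letters. CCCNNGGG was found in the Igll1 window alone of the 8 members with an entry (none was given for Cd79b) and in 13.7% of all promoters. The octamer ATGCAAAT, or ATTTGCAT on the other strand, was in the Vpreb3 and Blnk windows and in 1.74% of all. No matches overlapped in these windows, the motifs were chosen with the sequences in view, and a match describes letters only and is not a binding site.

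The Mt1/Myl10-led cluster held all 3 of these genes between the pro-B-like and the other stages. Vpreb1 there was at 7.07 (6.31–7.91) at day 0, 10.9 (10.5–11.2) at day 3, 8.72 (8.02–9.46) at day 6 and 9.65 (9.02–10.3) at day 9, and Igll1 at 8.53 at day 0, 7.58 at day 3, 7.99 at day 6 and 9.44 at day 9. Pro-B-like cells stood 4.34 to 6.07 times higher for Vpreb1 and 3.78 to 4.10 times higher for Igll1, yet 79.1% of the cluster's cells (291 of 368; 14.9% after thinning) had UMIs of both. Vpreb2 was at 1.001 (0.727–1.34) at day 0, 5.15 (4.90–5.40) at day 3, 0.620 (0.445–0.841) at day 6 and 0.860 (0.679–1.07) at day 9, and the day 3 library stood apart from the rest. Pro-B-like cells stood 1.21 to 9.25 times higher for Vpreb2, with intervals apart in 3 of 4 libraries and overlapping at day 3. The summed neutrophil marker level of this cluster was 202 at day 0, 238 at day 3, 437 at day 6 and 307 at day 9, and its median depth was 11207, 17222, 11724 and 9412 UMIs in the same order.

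The share of Vpreb2 among Vpreb1 and Vpreb2 UMIs, a measure chosen after its values were seen, was steady in pro-B-like cells, at 11.5% (9.93–13.3) at day 0, 11.7% (9.25–14.5) at day 3, 11.2% (9.16–13.4) at day 6 and 9.42% (7.72–11.3) at day 9. Over all pro-B-like cells it was 11.04% (465 of 4212 UMIs, 10.1–12.0). In the Mt1/Myl10-led cluster it was 12.4% (9.15–16.3) at day 0, 32.1% (30.9–33.4) at day 3, 6.63% (4.80–8.89) at day 6 and 8.18% (6.51–10.1) at day 9, with 22.7% (17.8–28.3) in 16 cells at day 12. The day 3 value was highest and rested on 1669 of 5194 UMIs of 1 library. Of its 184 cells, 132 (71.7%) had a UMI of Cdkn2a or Tmem119, against 2.94%, 4.17%, 3.49% and 12.5% at day 0, day 6, day 9 and day 12. The Vpreb2 share was 34.8% (33.4–36.2) in those 132 cells and 14.2% (11.6–17.1) in the other 52, whose median depths were 19774 and 8040.5 UMIs. At day 12 the 14 cells without such a UMI stood at 20.4% (15.3–26.2). This split by UMI was also chosen after the values were seen, and the part of depth in it was not tested.

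**Figure D2:**
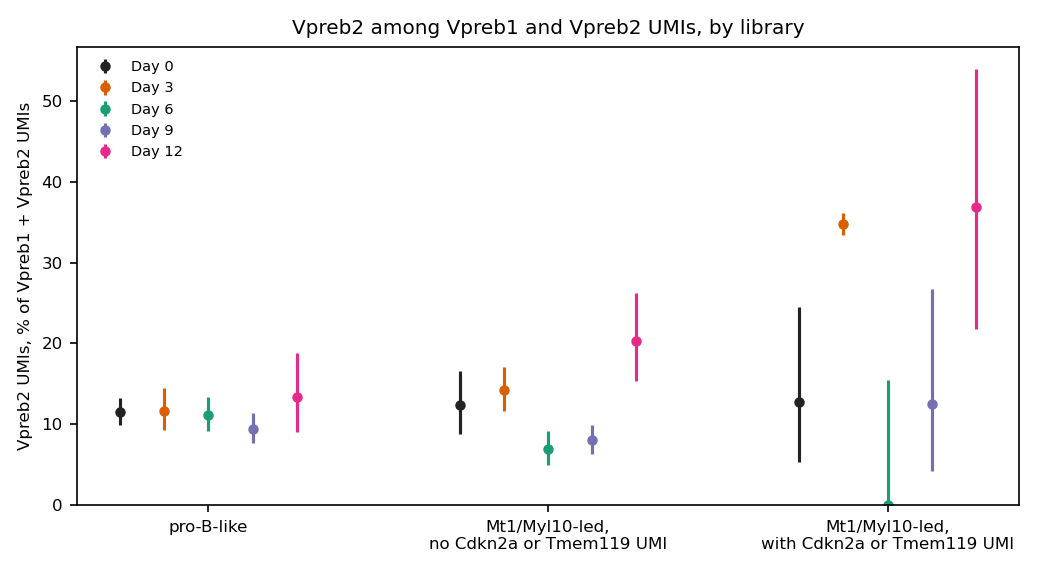
Vpreb2 UMIs as a percentage of Vpreb1 and Vpreb2 UMIs (linear axis) in pro-B-like cells and in Mt1/Myl10-led cells without and with a Cdkn2a or Tmem119 UMI, by day, with exact binomial 95% intervals. The day 3 cells with such a UMI stand at 34.8% against 9.42% to 13.4% in pro-B-like cells, and the other points of that group rest on 1 to 3 cells each.

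The plot of the Vpreb2 share shows all 5 days, including the day 12 groups of under 20 cells, for which the intervals are wide. The wide intervals of the day 0, day 6, day 9 and day 12 cells with a Cdkn2a or Tmem119 UMI cannot place them above or below the rest of the cluster in the same way as the 132 cells of day 3.

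Vpreb3, a VpreB-like protein that associates with immunoglobulin chains inside the cell, had a wider reach than the other surrogate light chain genes. Pro-B-like cells held 42.4 (40.1–44.8) at day 0, 41.8 (38.1–45.7) at day 3, 56.4 (52.9–60.1) at day 6 and 66.7 (62.9–70.6) at day 9, and the libraries of days 6 and 9 stood above those of days 0 and 3. Small pre-B-like cells held 42.6 (39.9–45.4) at day 0, 46.7 (43.3–50.3) at day 3, 50.4 (48.4–52.6) at day 6 and 46.8 (44.3–49.5) at day 9, within the range of the pro-B-like libraries, which were higher in 2 of 4. Cycling cells were lower than both in 4 of 4 libraries, at 29.4 at day 0, 30.8 at day 3, 29.7 at day 6 and 31.0 at day 9. The Ifi30/Ms4a1-led cluster followed at 13.7–17.2, and mature B-like cells at 2.76 at day 0, 2.74 at day 3, 3.67 at day 6, 3.25 at day 9 and 2.06 at day 12, with intervals apart in all 4 libraries. Small pre-B-like cells held 13.7 to 17.1 times the mature B-like level. In free RNA Vpreb3 was at 2.52 at day 0, 2.50 at day 3, 3.50 at day 6, 2.60 at day 9 and 0.529 at day 12, and the mature B-like intervals overlapped with this level on each day but day 12. Neutrophil-like cells, however, held Vpreb3 at 0.0391 to 0.308 and T-like cells at 0 to 0.543, below every mature B-like value. In the Mt1/Myl10-led cluster Vpreb3 was at 11.5–16.2.

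Cd79a and Cd79b, whose products form the heterodimer that passes the signal of both the pre-B cell receptor and the mature B cell receptor, were present from the pro-B-like stage on. Cd79a (ENSMUSG00000003379) lies at chr7:24897381-24902197 on the plus strand with 5 exons, and Cd79b (ENSMUSG00000040592) at chr11:106311341-106314762 on the minus strand with 6. Cd79a in pro-B-like cells was at 23.0 (21.4–24.8) at day 0, 23.9 (21.1–26.9) at day 3, 22.9 (20.7–25.2) at day 6 and 29.8 (27.3–32.5) at day 9, with day 9 above the rest. Cycling cells had the lowest level of the named stages, 13.1 at day 0, 10.6 at day 3, 12.95 at day 6 and 12.5 at day 9, below the small pre-B-like, Ifi30/Ms4a1-led and mature B-like cells with intervals apart in 4 of 4 libraries. Small pre-B-like cells were at 33.2 at day 0, 26.7 at day 3, 31.5 at day 6 and 32.5 at day 9, and mature B-like cells at 33.1 at day 0, 28.0 at day 3, 29.5 at day 6, 26.8 at day 9 and 32.9 at day 12. Pro-B-like cells were below small pre-B-like cells in 4 of 4 libraries, with intervals apart in 2. The small pre-B-like and mature B-like ranges overlapped with each other and with the Ifi30/Ms4a1-led cluster (32.6–35.5). Within libraries, that cluster was above mature B-like cells in 4 of 4, with intervals apart in 3. It was above small pre-B-like cells in 4 of 4, with intervals apart in 1. The Mt1/Myl10-led cluster was lower, at 7.93–9.20, and neutrophil-like cells were at 0.204 at day 0, 0.203 at day 3, 0.332 at day 6, 0.245 at day 9 and 0.0343 at day 12.

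Cd79b was highest in small pre-B-like cells, at 24.6 (22.6–26.8) at day 0, 24.3 (21.9–27.0) at day 3, 23.0 (21.6–24.5) at day 6 and 23.8 (22.0–25.7) at day 9. Pro-B-like cells, at 11.02 (9.87–12.3) at day 0, 10.2 (8.44–12.2) at day 3, 9.12 (7.75–10.7) at day 6 and 10.7 (9.21–12.3) at day 9, held 0.396 to 0.450 of that level. Cycling cells were at 7.92 at day 0, 10.5 at day 3, 8.19 at day 6 and 7.56 at day 9. Their range overlapped with that of pro-B-like cells, which were higher in 3 of 4 libraries, with intervals apart in 2. Mature B-like cells lay between, at 14.9 at day 0, 16.0 at day 3, 13.8 at day 6, 13.6 at day 9 and 15.5 at day 12, and small pre-B-like cells stood 1.52 to 1.74 times above them. The Ifi30/Ms4a1-led cluster, at 20.6–23.1, was 1.44 to 1.54 times the mature B-like level. Its range overlapped with that of small pre-B-like cells, which were higher in 4 of 4 libraries, with intervals apart in 1. The Mt1/Myl10-led cluster held 2.91 at day 0, 1.95 at day 3, 3.91 at day 6 and 3.37 at day 9, below every named stage. Cd79b UMIs were in 94.7% (thinned 66.3%) of small pre-B-like, 87.8% (thinned 43.0%) of pro-B-like and 83.7% (thinned 51.5%) of mature B-like cells, and in 6.07% (thinned 0.930%) of neutrophil-like cells.

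The remaining genes act inside the cell. Blnk (ENSMUSG00000061132), the adaptor that Syk phosphorylates, lies at chr19:40928927-40994535 on the minus strand with 17 exons. Its level in pro-B-like cells was 4.14 (3.44–4.93) at day 0, 4.31 (3.19–5.70) at day 3, 4.79 (3.81–5.95) at day 6 and 5.81 (4.73–7.06) at day 9, with overlapping intervals. Small pre-B-like cells held 2.59 (1.96–3.36) at day 0, 3.22 (2.38–4.26) at day 3, 3.63 (3.08–4.24) at day 6 and 4.10 (3.37–4.94) at day 9, below pro-B-like cells in 4 of 4 libraries, 1.32 to 1.60 times, though with intervals apart in 1. Cycling cells were at 2.59 at day 0, 2.47 at day 3, 2.49 at day 6 and 2.51 at day 9, and mature B-like cells at 1.41 at day 0, 1.29 at day 3, 1.42 at day 6, 1.36 at day 9 and 1.16 at day 12. Pro-B-like cells held 2.93 to 4.27 times the mature B-like level, and the Ifi30/Ms4a1-led cluster (1.27–1.91) overlapped with mature B-like cells. Blnk UMIs were in 70.5% (thinned 21.5%) of pro-B-like and 21.1% (thinned 7.05%) of mature B-like cells, against 1.34% (thinned 0.348%) of T-like cells at a median depth of 2439 UMIs.

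Syk (ENSMUSG00000021457), the kinase that docks on the phosphorylated Cd79 chains, lies at chr13:52583173-52648792 on the plus strand with 14 exons. In pro-B-like cells it was at 0.695 (0.430–1.06) at day 0, 1.06 (0.546–1.84) at day 3, 0.994 (0.579–1.59) at day 6 and 1.15 (0.702–1.78) at day 9, the lowest of the named stages in every library, though with intervals apart from those of mature B-like and of cycling cells in 2 of 4. The level in free RNA was 0.728 at day 0, 0.769 at day 3, 1.11 at day 6 and 0.982 at day 9, and its interval overlapped with that of pro-B-like cells in all 4 libraries. Cycling cells held 2.36 (1.76–3.10) at day 0, 1.77 (1.28–2.38) at day 3, 2.01 (1.67–2.40) at day 6 and 1.53 (1.19–1.93) at day 9. Small pre-B-like cells held 4.21 (3.39–5.17) at day 0, 5.53 (4.41–6.84) at day 3, 3.70 (3.15–4.31) at day 6 and 4.21 (3.48–5.06) at day 9, above every other stage in 4 of 4 libraries, so that pro-B-like cells were at 0.165 to 0.273 of their level. Mature B-like cells were at 1.41 at day 0, 2.23 at day 3, 2.02 at day 6, 1.62 at day 9 and 1.57 at day 12. Their range overlapped with those of the Ifi30/Ms4a1-led cluster (1.57–2.46) and of cycling cells, the latter with intervals apart in 1 of 4 libraries. Small pre-B-like cells stood 1.83 to 2.98 times above mature B-like cells. The Mt1/Myl10-led cluster held 0.213–0.670. Syk UMIs were in 50.2% (thinned 19.3%) of small pre-B-like and 23.6% (thinned 6.33%) of pro-B-like cells, and in 4.53% (thinned 0.639%) of T-like cells. Syk and Blnk therefore had their highest levels in different stages.

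Btk (ENSMUSG00000031264), the kinase that Blnk brings to phospholipase C gamma, lies at chrX:134542336-134583570 on the minus strand with 19 exons. Small pre-B-like cells held 0.925 (0.565–1.43) at day 0, 1.05 (0.602–1.71) at day 3, 0.666 (0.446–0.956) at day 6 and 0.776 (0.480–1.19) at day 9, and pro-B-like cells 0.430 (0.229–0.736) at day 0, 0.704 (0.304–1.39) at day 3, 0.526 (0.241–0.999) at day 6 and 0.575 (0.276–1.06) at day 9. Mature B-like cells were at 0.718 at day 0, 0.661 at day 3, 0.671 at day 6, 0.643 at day 9 and 0.495 at day 12, and cycling cells at 0.324 at day 0, 0.946 at day 3, 0.418 at day 6 and 0.459 at day 9. Small pre-B-like cells were above pro-B-like and above cycling cells in 4 of 4 libraries, but the intervals overlapped in every library and the ranges of all named stages overlapped. Btk in free RNA was at 0.332 at day 0, 0.348 at day 3, 0.378 at day 6, 0.401 at day 9 and 0.366 at day 12, with intervals that overlapped with those of pro-B-like cells on all 4 days and of cycling cells at day 0, day 6 and day 9.

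The comparison of early with mature cells asks which components differ across B cell maturation. For it, the pro-B-like, cycling and small pre-B-like cells (254, 161, 362, 317 and 37 cells from day 0 to day 12) were joined, and the log2 ratio of their level to that of mature B-like cells, with 0.1 UMI per 10000 added to both, was taken within each library. Of the 9 genes, 5 were at least 2-fold higher in every library, while 5.12% of 7834 genes with at least 50 summed UMIs were, and 0 were at least 2-fold lower in every library, while 1.98% of all were. The median ratio was 1.18 over the 9 genes and 0.22 over all genes. Vpreb1 stood at 5.92 ± 0.99 (SD, n = 5 libraries), Igll1 at 5.80 ± 0.84, Vpreb2 at 3.92 ± 0.64 and Vpreb3 at 3.72 ± 0.20. With early and mature cells selected by a gate on single genes in place of clusters, these means were lower and more spread, at 4.04 ± 2.04 for Vpreb1, 3.85 ± 2.13 for Igll1, 2.88 ± 1.11 for Vpreb2 and 2.01 ± 0.83 for Vpreb3. Blnk followed at 1.18 ± 0.10, and its mean was under 2-fold with that gate (0.86), with the Mt1/Myl10-led cluster among early cells (0.65) and with 1 added in place of 0.1 (0.83), so that the count of 5 would not hold there. These SDs hold differences between days as well as between mice.

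The ratios of Vpreb1, Igll1 and Vpreb2 rest on mature B-like counts near 0, so the added 0.1 sets much of their size: with 0.01 added, Vpreb1 stood at 7.09 and Vpreb2 at 6.82. Cd79a was lower in early cells in 5 of 5 libraries, at -0.54 ± 0.18, and Cd79b in 5 of 5, at -0.18 ± 0.25, although the Cd79b mean was 0.17 when cells were thinned to 500 UMIs. With the gate Cd79a was at -1.14 and Cd79b at -1.10, and with the Mt1/Myl10-led cluster among early cells at -1.13 and -1.07. Syk was higher in 4 of 5 libraries, at 0.31 ± 0.27, but turned to -0.24 with the gate. Btk stood at 0.04 ± 0.42, higher in 2 of 5 libraries, so its direction was not settled.

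Among 40 other genes of the pathway, 39 had enough UMIs, and their median ratio was -0.30. Of these, 2 of 39 were at least 2-fold higher in early cells in every library, a share near the 5.12% of all genes: Cd72, an inhibitory receptor, at 1.37 ± 0.13, and Tcf3, which encodes the E2A proteins, at 2.17 ± 0.41. At least 2-fold lower in every library were 8 of 39, beside 1.98% of all genes, namely the adaptor Bank1 at -4.20 ± 0.11, the exchange factor Rasgrp3 at -2.17 ± 0.48, the inhibitory receptor Cd22 at -2.44 ± 0.59, the phosphatase Ptprc at -1.39 ± 0.26, and Ighd at -4.08 ± 0.70, Igkc at -1.65 ± 0.29, Iglc2 at -2.53 ± 0.39 and Iglc3 at -2.23 ± 0.41. Of the 4 Src-family and Src-regulating kinases, 0 passed in either direction, and Ighm, the heavy chain that pairs with the surrogate light chain, stood at 0.28 ± 0.10.

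The comparison of days within a stage asks whether the components changed after transplantation. A change means at least 1.5-fold higher or lower than at day 0, over genes with at least 50 summed UMIs in both libraries together, and every day shares the day 0 library. In pro-B-like cells 7 of the 9 genes had enough UMIs. Past the fold lay 20.7% of all genes at day 3, 17.4% at day 6 and 17.3% at day 9, and of the members 0, 0 and 1, Vpreb3 at day 9, with a log2 ratio of 0.65. Vpreb1, Vpreb2 and Igll1 stayed between -0.14 and 0.35 in these cells on all 3 days.

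In cycling cells, with 7 members counted, 12.4%, 15.9% and 18.1% of all genes were past the fold at day 3, day 6 and day 9, and 0, 0 and 2 members. At day 9 Vpreb1 was higher, with a log2 ratio of 1.23 (29 UMIs at day 0 and 144 at day 9), and Syk was lower, at -0.63. In small pre-B-like cells, also with 7 members, the shares of all genes were 13.9%, 16.1% and 15.9%, and 0, 1 and 1 members passed: Vpreb1 at day 6, at -0.80 (39 UMIs at day 0 and 45 at day 6), and Blnk at day 9, at 0.66. In mature B-like cells, with 6 members, the shares were 18.1%, 11.7%, 16.1% and 25.7% from day 3 to day 12, and Syk at day 3, at 0.66, was the 1 member past the fold. These counts depend on the processing: summed over days, 7 of 21 values were past the fold in small pre-B-like cells at resolution 1.0 (15.4% of all genes) in place of 2 of 21 (15.5%). In cycling cells 4 of 20 were past it with a mitochondrial limit (16.2% of all genes), 4 of 21 without Scrublet doublets (17.3%) and 4 of 21 with free RNA subtracted (29.7%), in place of 2 of 21 (15.8%). Leaving out Scrublet doublets kept 1130 of the 1131 joined early cells, with all 237 pro-B-like and 638 small pre-B-like cells among them.

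With the 3 early stages joined, all 9 members had enough UMIs, and 15.9%, 17.1%, 16.7% and 24.0% of all genes were past the fold from day 3 to day 12, against 4, 3, 2 and 1 of 9 members. At day 3 these were Vpreb1 at -0.71, Vpreb2 at -0.69, Igll1 at -0.93 and Btk at 0.76. At day 6 they were Vpreb1 at -1.28, Vpreb2 at -1.54 and Igll1 at -1.36. At day 9 Vpreb2 stood at -1.0 and Igll1 at -0.79, and at day 12 Syk stood at -0.61.

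Vpreb1 in the joined cells was at 18.6 at day 0, 11.4 at day 3, 7.67 at day 6, 12.6 at day 9 and 16.1 at day 12, with the lowest level at day 6. Igll1 was at 15.1 at day 0, 7.94 at day 3, 5.88 at day 6, 8.70 at day 9 and 10.5 at day 12, and Vpreb2 at 2.34 at day 0, 1.45 at day 3, 0.806 at day 6, 1.17 at day 9 and 2.29 at day 12, each also lowest at day 6. Pro-B-like cells, the stage with most UMIs of these genes, made up 37.0% (31.1–43.3) of the joined cells at day 0, 19.9% (14.0–26.9) at day 3, 12.4% (9.21–16.3) at day 6, 17.4% (13.3–22.0) at day 9 and 29.7% (15.9–47.0) at day 12. The part of this mix of stages in the levels of the joined cells was not tested.

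**Figure D3:**
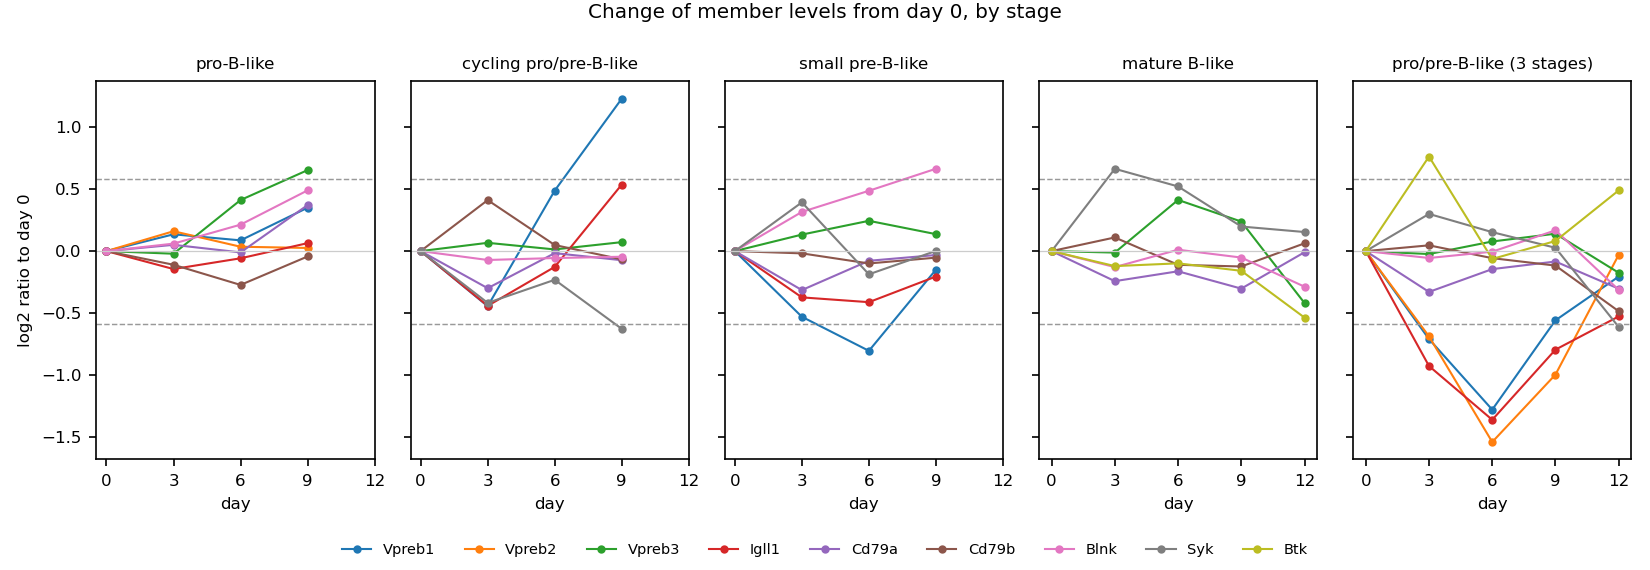
Log2 ratio of each member's level to that at day 0 against the day of the library, for the stages with at least 20 cells and members with at least 50 summed UMIs, 1 line a gene, with dashed lines at 1.5-fold. Vpreb1, Vpreb2 and Igll1 fall to -1.28, -1.54 and -1.36 at day 6 in the joined early cells and stay between -0.14 and 0.35 in pro-B-like cells.

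The plot of changes from day 0 has 1 library at each point and therefore no error bars for mice. It shows the low point of Vpreb1, Vpreb2 and Igll1 at day 6 in the joined cells and in no panel of a single stage but that of small pre-B-like cells, where Vpreb1 and Igll1 were at their lowest that day and Vpreb1 rested on 45 UMIs.

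Of the 3 intracellular components, Blnk stood above free RNA in 1 class outside the B lineage. Blnk in plasmacytoid dendritic-like cells, a cluster with 7 of 7 of its own markers and also 3 of 9 B-lineage markers, was at 1.33 (1.12–1.55) at day 0, 0.996 (0.872–1.13) at day 3, 1.10 (0.971–1.25) at day 6, 0.923 (0.812–1.05) at day 9 and 0.577 (0.416–0.781) at day 12, against 0.413 at day 0, 0.427 at day 3, 0.654 at day 6, 0.440 at day 9 and 0.0972 at day 12 in free RNA, with intervals apart in 5 of 5 libraries. Its level was 0.00800 to 0.0382 in monocyte-like cells, 0.00770 to 0.0485 in neutrophil-like cells and at most 0.137 in any library of the natural killer-like, T-like and myeloid progenitor-like classes, all below the lowest of these 5 values. Blnk UMIs were in 24.2% to 44.4% of plasmacytoid dendritic-like cells by library (thinned 1.10% to 10.7%) at median depths of 5033.5 to 7417 UMIs.

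Syk was at 0.819 ± 0.152 (SD, n = 5 libraries) in plasmacytoid dendritic-like, 0.588 ± 0.0752 in monocyte-like and 0.550 ± 0.0807 in neutrophil-like cells, with the plasmacytoid dendritic-like range above the neutrophil-like one and the monocyte-like range overlapping with both, and at 0.184 ± 0.0421 (0.139–0.2498) in T-like cells, below the range of each of them. Btk in monocyte-like cells was at 0.334 (0.288–0.385) at day 0, 0.310 (0.267–0.358) at day 3, 0.319 (0.279–0.364) at day 6, 0.354 (0.313–0.400) at day 9 and 0.320 (0.272–0.374) at day 12, with overlapping intervals. Its level was 0.192 to 0.325 in plasmacytoid dendritic-like cells, 0.168 to 0.222 in neutrophil-like cells and 0.0463 to 0.0764 in T-like cells. The monocyte-like range stood above that of neutrophil-like cells, and both stood above that of T-like cells. Neither gene stood above free RNA with intervals apart in these classes. That does not show that the classes lack the genes. T-like cells also lay below free RNA for both, and a free RNA level is not the amount of free RNA in a cell. Free RNA held Syk at 0.728 to 1.11, a level whose intervals overlapped with those of plasmacytoid dendritic-like cells in 5 of 5 libraries and lay above those of neutrophil-like cells in 5 of 5 and of monocyte-like cells in 4 of 5. It held Btk at 0.332 to 0.401, with intervals that overlapped with those of monocyte-like and plasmacytoid dendritic-like cells in 5 of 5 and lay above those of neutrophil-like cells in 5 of 5.

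**Figure D4:**
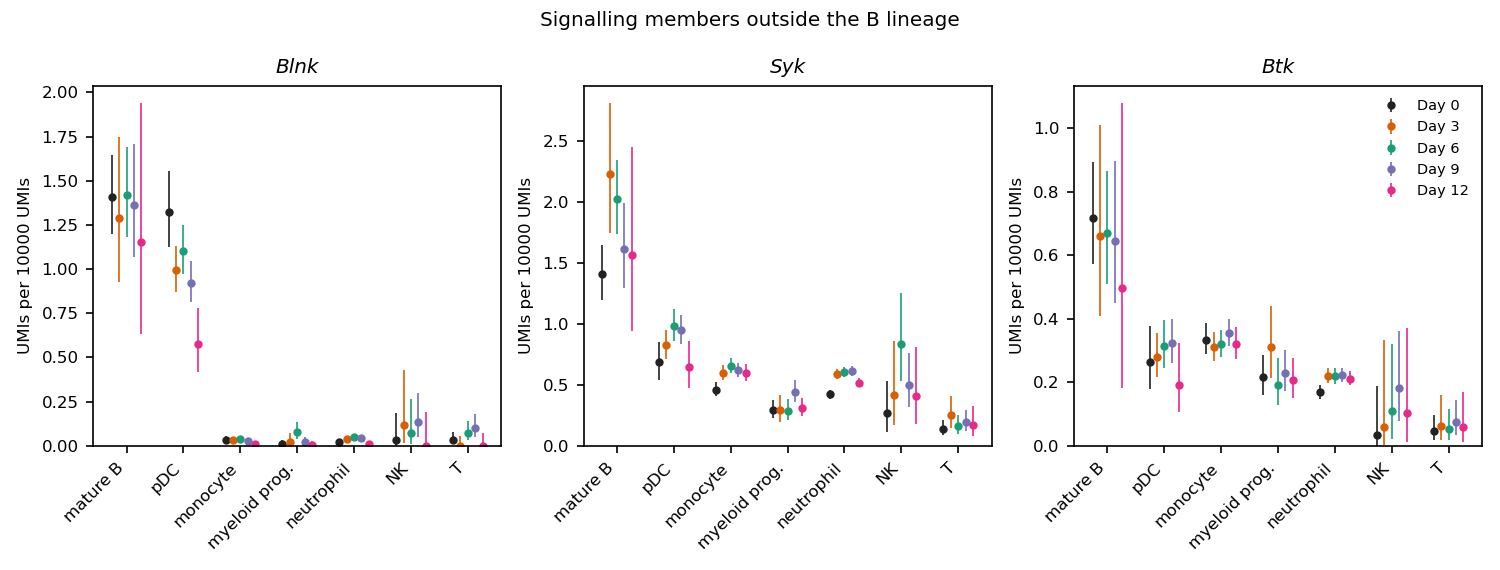
Levels of Blnk, Syk and Btk (UMIs per 10000 UMIs, linear axes, each gene on its own scale) in mature B-like cells and 6 classes of cells outside the B lineage, with 1 point a library coloured by day and exact Poisson 95% intervals. Blnk outside the B lineage stands out in plasmacytoid dendritic-like cells, at 0.577 to 1.33. Free RNA, which is not drawn, held Syk at 0.728 to 1.11 and Btk at 0.332 to 0.401, above every T-like library of each gene.

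The plot of classes places the mature B-like libraries first, as the reference for each gene. Cd79b was at 0.0450 to 0.245 in neutrophil-like and 0.440 to 0.649 in plasmacytoid dendritic-like cells, not above the 2.27 at day 0, 1.30 at day 3, 2.88 at day 6, 1.84 at day 9 and 0.506 at day 12 of free RNA, against 13.6 to 16.0 in mature B-like cells.

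Across 25 combinations of stage and library, Vpreb1 and Igll1 had the most alike profiles of all pairs of members (Pearson r of the log2 level = 0.992), followed by Vpreb1 and Vpreb2 (0.913) and by Cd79a and Cd79b (0.903). Cd79b and Syk had an r of 0.857 and Vpreb3 and Blnk of 0.830, whereas Vpreb1 and Cd79b had -0.556. Among 5732 genes outside the members, those most like Vpreb1 were Gfra2 (0.976), Adgrg1 (0.951), Lef1 (0.946), Pde2a (0.944) and Atp1b3 (0.938). The same 5 genes came first for Igll1, from Gfra2 (0.971) to Adgrg1 (0.940). Those most like Cd79a were Ifi203 (0.965), Cd37 (0.965), Malat1 (0.955), Cd53 (0.936) and Mndal (0.933), and among those most like Blnk were Oxr1 (0.917), Rag2 (0.908), Rag1 (0.906) and Rai1 (0.905). The 25 points share 5 libraries and 6 groups of cells, so these are descriptions with no test.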

How the data were processed

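For each of 5 libraries the authors deposited raw UMI counts per gene and barcode, produced, per the labels, by Cell Ranger against mouse build mm10. Columns of other samples numbered 0. The 9 members, the 40 pathway genes and the marker lists were chosen with earlier results of these data known. Named genes were the members, pathway genes at least 2-fold different in the same direction in every library, and for Vpreb1, Igll1, Cd79a and Blnk the 5 genes with the highest Pearson correlation among those with at least 200 summed UMIs, of which 1 for Blnk is not reported here.

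Barcodes with at least 500 UMIs were clustered in 2 rounds (all cells, then B-lineage cells) with Python 3.11.15, scanpy 1.11.5, leidenalg 0.10.2 and igraph 0.11.9, using 1000 variable genes per library found in at least 2 libraries (1059 and 1046 genes, members and pathway genes left out), 20 principal components, 20 neighbors and resolution 0.6. A named cluster had at least 3 markers of a list, and at least 0.3 of it, in 20% of cells at 2-fold. This was not enough on its own. A cluster of 1189 cells with 7 monocyte markers was left unnamed, while 1 of 1227 cells with 5 was named. The rule was settled after the clusters were seen. Levels, intervals and thinning used numpy 2.4.6, scipy 1.17.1 and pandas 2.3.3, sequences Biopython 1.88 and GENCODE vM21, and figures matplotlib 3.10.9. The calculation of ratios was tested on simulated data. Scrublet marked 158, 1, 0, 1 and 2 cells from day 0 to day 12, too few from day 3 on for it to have worked, and no doublet was removed in the main values.

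A stage needed 20 cells in a library. No test was made, because each day had 1 mouse. Alternatives were at least 1000 UMIs per cell, a mitochondrial limit (3 median absolute deviations), Scrublet, resolution 1.0, a gate on single genes, means over cells, thinning, subtraction of free RNA, other pseudocounts, folds and count minimums, and leaving out each library.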

Additional observations from a re-analysis of the deposited data

Results flagged for a closer look

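In the Mt1/Myl10-led cluster, which had no stage name and was left out of the early and mature cells compared, Vpreb2 made up 32.1% of Vpreb1 and Vpreb2 UMIs at day 3 (1669 of 5194, 30.9–33.4), a signal outside the stages that were compared. The cluster's other libraries with at least 20 cells stood at 12.4%, 6.63% and 8.18% at day 0, day 6 and day 9, and pro-B-like cells of the same day 3 library at 11.7%. Day 12 was also raised, at 22.7% (17.8–28.3) in 16 cells of the cluster, beside 13.4% (9.09–18.8) in 11 pro-B-like cells. Vpreb2 and Vpreb1 are near-identical copies, and the day 3 value comes from 1 mouse.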

How the results depend on the processing

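Of 153 log2 ratios of early over mature cells, 142 kept their sign, and no ratio of Vpreb1, Vpreb2, Vpreb3, Igll1, Blnk or Cd79a changed it. The Btk ratio of 0.04 turned to -0.10 with a mitochondrial limit, -0.33 with a gate on single genes in place of clusters, -0.46 after thinning to 500 UMIs, -0.24 with the Mt1/Myl10-led cluster among early cells and -0.0083 without the Crem-led mature cluster. Syk turned to -0.24 with the gate and -0.60 with the Mt1/Myl10-led cluster, and Cd79b to 0.16 as a mean over cells and 0.17 after thinning. The alternatives with the Mt1/Myl10-led and without the Crem-led cluster, and all those of the Vpreb2 share, were chosen after the data were seen. The cause was not tested. Under the gate, which kept 283, 332, 381, 396 and 53 early cells, the ratio was 4.04 for Vpreb1, 2.88 for Vpreb2, 2.01 for Vpreb3, 3.85 for Igll1, -1.14 for Cd79a, -1.10 for Cd79b and 0.86 for Blnk. Summed over days, 10 of 29 member changes from day 0 passed the fold in gated mature cells, beside 22.9% of all genes. The main values had 1 of 24, beside 17.2% of all genes. Of the gated early cells, 30.9% held both Vpreb1 and Igll1. With the Mt1/Myl10-led cluster, Vpreb3 was at 3.04, Cd79a at -1.13, Cd79b at -1.07 and Blnk at 0.65. As a mean over cells, Cd79a was at -0.28 and Syk at 0.81, and after thinning at -0.25 and 0.70. With 0.01 added, Vpreb1 was at 7.09, Vpreb2 at 6.82 and Igll1 at 7.25, and with 1 added Vpreb1 was at 3.61, Vpreb2 at 1.34, Vpreb3 at 3.37, Igll1 at 3.25 and Blnk at 0.83.

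Member changes from day 0 are counts of values tested, summed over days, with the share of all genes past the fold in brackets. They were 1 of 21 (18.3%) in pro-B-like, 2 of 21 (15.8%) in cycling, 2 of 21 (15.5%) in small pre-B-like, 1 of 24 (17.2%) in mature B-like and 10 of 36 (17.8%) in joined early cells. With at least 1000 UMIs per cell they were 1 of 21 (14.9%) in small pre-B-like and 2 of 24 (17.4%) in mature B-like cells. In cycling cells the count was 4 of 20 (16.2%) with the mitochondrial limit and 4 of 21 (17.3%) without Scrublet doublets. With free RNA subtracted it was 4 of 21 (29.7%) in cycling and 2 of 24 (37.5%) in mature B-like cells. At resolution 1.0 it was 0 of 21 (17.5%) in pro-B-like and 7 of 21 (15.4%) in small pre-B-like cells. As a mean over cells it was 0 of 21 (23.2%) in pro-B-like cells. After thinning it was 2 of 15 (16.8%) in pro-B-like, 0 of 7 (20.2%) in cycling and 0 of 20 (19.2%) in mature B-like cells. At 2-fold it was 0 of 21 (4.54%) in pro-B-like, 1 of 21 (3.34%) in cycling, 0 of 21 (3.52%) in small pre-B-like, 0 of 24 (3.81%) in mature B-like and 3 of 36 (4.28%) in joined early cells. At 20 summed UMIs it was 4 of 27 (30.5%) in pro-B-like and 2 of 26 (27.9%) in mature B-like cells. At 200 it was 0 of 10 (9.56%) in cycling and 0 of 12 (10.3%) in small pre-B-like cells. Without the Crem-led cluster it was 2 of 24 (16.4%) in mature B-like cells. The share of pro-B-like cells with both Vpreb1 and Igll1 was 96.3% at 1000 UMIs, 97.5% with the mitochondrial limit and 65.4% after thinning, which left 0.940% of small pre-B-like and 14.6% of joined early cells. The Vpreb2 share in the Mt1/Myl10-led cluster at day 3 was 28.4% after thinning. At resolution 1.0 there was no such cluster, and the share at day 3 was 33.8% in 154 cells led by Rnase12 and Myl10 and 13.6% in 31 cells led by Nrgn and Srfbp1.

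Leaving out each library in turn gave 5.56 to 6.10 for Vpreb1, 3.75 to 4.11 for Vpreb2, 3.65 to 3.79 for Vpreb3, 5.57 to 5.97 for Igll1, -0.61 to -0.48 for Cd79a, -0.22 to -0.07 for Cd79b, 1.14 to 1.21 for Blnk, 0.23 to 0.41 for Syk and -0.091 to 0.13 for Btk. It gave 92.3% to 94.6% of pro-B-like, 2.51% to 3.92% of small pre-B-like and 21.7% to 29.5% of joined early cells with both genes, and a Vpreb2 share of 10.8% to 11.6% in pro-B-like cells. No paired analysis was possible because each day had 1 mouse, so that days share no replicates. Early and mature cells were set against each other within each of 5 libraries, with no p-value because the stages were clustered from the same cells. The mitochondrial limit left 8 early and 6 mature B-like cells at day 12, so that day gave no value there. Depth limits Btk and Syk, with levels near 1 UMI per 10000 in stages of 32 to 94 cells, and it limits day 12 in the early stages, which held under 20 cells each. Vpreb1 and Igll1 in small pre-B-like cells rest on few UMIs.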
